A study of Homo sapiens with 12 samples.

Results

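A set of 10 innate immune genes was followed across proliferating and senescent human fibroblasts: 5 Toll-like receptors (TLR1, TLR2, TLR3, TLR4 and TLR6), the adaptor MYD88, the serum amyloid A genes SAA1 and SAA2, and the inflammatory caspases CASP1 and CASP4. They were chosen by name as a Toll-like receptor, amyloid A and inflammatory caspase set, and all 10 were found among the 57500 genes of the count table. RNA was sequenced from MRC5 cells, a line of normal human lung fibroblasts, in 12 libraries. Proliferating cells (Prol) were set against cells made senescent with X-rays (Sen(IR), 20 Gy), and against irradiated cells given either UK5099, an inhibitor of the mitochondrial pyruvate carrier, or CTPI2, an inhibitor of the mitochondrial citrate carrier SLC25A1. Each of the 4 groups (Prol and Sen(IR), and the treated Sen(IR)+CTPI2 and Sen(IR)+UK5099) held 3 libraries. By the study's methods, the drugs were added 1 day after irradiation and cells were collected at day 10 to 12. UK5099 was used at 100 uM and CTPI2 at 15 or 30 uM, and which of the CTPI2 concentrations was sequenced is not given in the sources used here. The comparisons ask what senescence does to these genes and whether blocking pyruvate entry or citrate export changes their level in senescent cells. All libraries come from 1 cell line, so the groups carry no variation between donors.

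Toll-like receptors recognise microbial molecules and molecules released by damaged cells. TLR1, TLR2, TLR4 and TLR6 sit mainly at the cell surface, where TLR2 pairs with TLR1 or TLR6 and binds lipoproteins and TLR4 responds to lipopolysaccharide, whereas TLR3 senses double-stranded RNA in endosomes. TLR3 signals through the adaptor TICAM1 (TRIF), and the other receptors here signal through MYD88, which also serves the interleukin 1 receptor family. SAA1 and SAA2 encode acute-phase proteins that are made in large amounts by the liver during inflammation, and serum amyloid A has been described as a ligand of TLR2. CASP1 is the protease of the canonical inflammasome, which cleaves the precursors of interleukin 1 beta and interleukin 18, and CASP4 senses intracellular lipopolysaccharide and cleaves gasdermin D in the non-canonical pathway. Fibroblasts that become senescent secrete inflammatory factors, the senescence-associated secretory phenotype, and these sensors have been studied as parts of it.

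The libraries held between 20597736 and 28245693 counts assigned to genes. Levels are given in CPM, the counts per 1e6 counts of the TMM-scaled library, and a gene was called when edgeR's quasi-likelihood test gave a Benjamini-Hochberg adjusted p under 0.05 over the 16251 genes tested and the log2 fold change was beyond 0.5 in size. The labels do not name separate cultures for the libraries of a group, and the study's legends describe its replicates as independent experiments or conditions. The p-values set each group difference against the spread between libraries of a group, estimated together in the fit of all 12 libraries. If the libraries of a group were not separate cultures, the p-values do not cover the spread between cultures. As a check of the labels, the cell cycle inhibitor CDKN1A stood at 315 ± 24.6 CPM in Prol and 1055 ± 16.2 CPM in Sen(IR) (SD, n = 3 each), and the nuclear lamina gene LMNB1 at 169 ± 11.6 and 8.24 ± 0.373 CPM. The check also held HMGB2 and MKI67, called lower in Sen(IR) than in Prol (log2 fold changes -3.32 and -4.42). With UK5099 against Sen(IR), HMGB2 was called higher (1.48, edgeR adjusted p = 1.85e-14). LMNB1 (-1.71, edgeR adjusted p = 6.01e-11) and MKI67 (-3.54, edgeR adjusted p = 3.38e-12) were called lower there. CDKN1A was not called there (0.06, edgeR adjusted p = 0.395), and with CTPI2 against Sen(IR) none of these genes was called. The summed level of 8 fibroblast markers, collagens among them, lay between 16139 and 20360 CPM in Prol, 17523 and 17999 CPM in Sen(IR), 15085 and 16711 CPM under CTPI2, but 8149 and 8680 CPM under UK5099. Most of that sum is collagen, and markers differed. Under UK5099, COL1A1 (log2 fold change -1.56, edgeR adjusted p = 2.33e-15), COL1A2 (-1.06) and COL3A1 (-1.75) were called lower than in Sen(IR). So were PDGFRA (-0.95, edgeR adjusted p = 1.86e-08) and THY1 (-0.76, edgeR adjusted p = 3.91e-11), which are not collagens. DCN (-0.0011, edgeR adjusted p = 0.993), LUM (0.05, edgeR adjusted p = 0.647) and PDGFRB (0.05, edgeR adjusted p = 0.547) were not called. The 8 markers of white blood cells, which carry many of these receptors, summed to between 0.290 and 1.45 CPM over all 12 libraries, and TYROBP was at 0 counts in every one. The 4 hepatocyte markers summed to at most 0.521 CPM, and ALB had 0 counts in Prol and at most 8 over the libraries of any other group. In such bulk libraries, fewer cells that express a gene and less RNA of it per cell cannot be told apart.

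**Figure D1:**
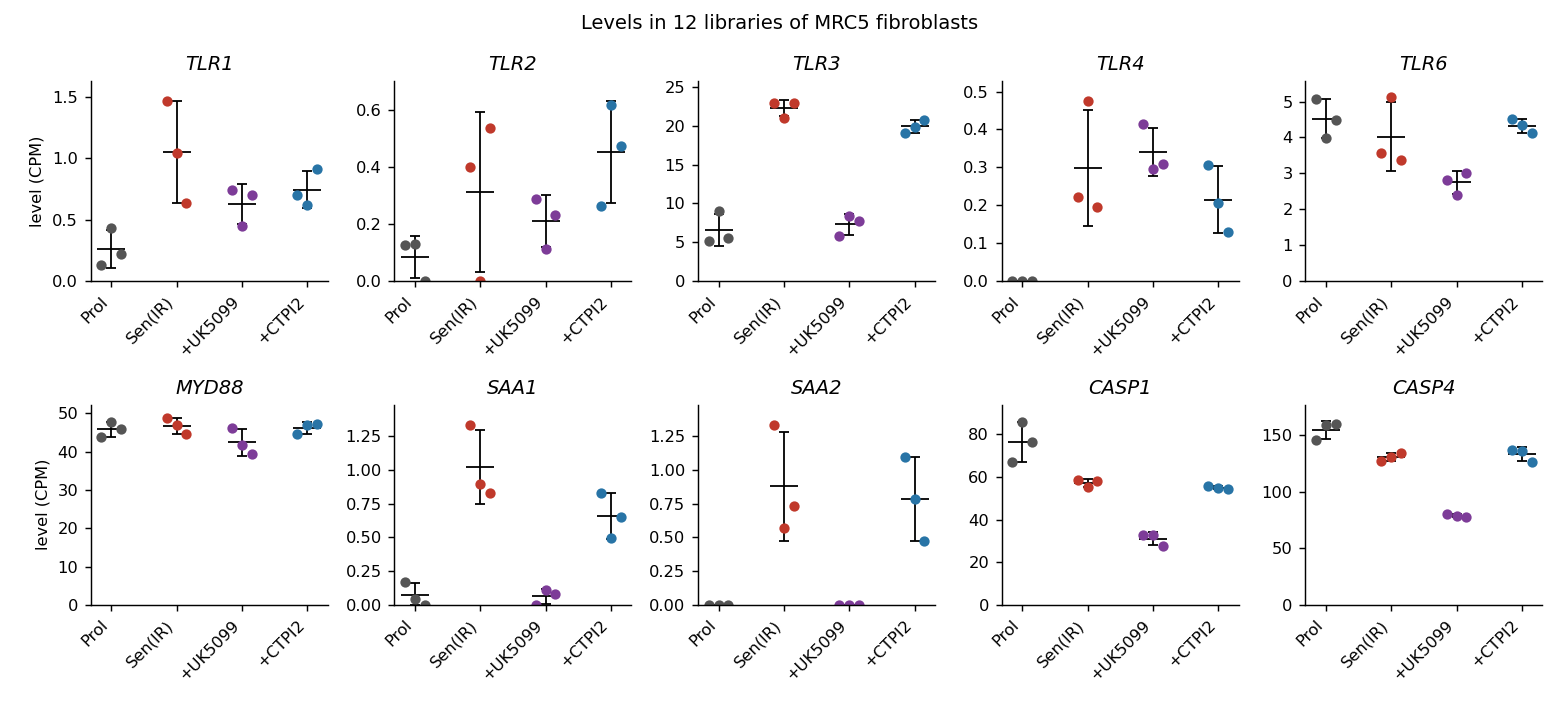
Level of each of the 10 genes in CPM (y axis, starting at 0) in the 12 libraries, by group (x axis). Points are libraries, horizontal bars are group means and whiskers are 1 SD. TLR3, SAA1 and SAA2 were high in Sen(IR) and Sen(IR)+CTPI2 and low in Prol and Sen(IR)+UK5099, while CASP1 and CASP4 were highest in Prol and lowest in Sen(IR)+UK5099, and MYD88 was nearly level.

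Of the 10 genes, 9 passed the filter on low counts, which kept genes above 0.423 CPM in enough libraries, and TLR4 did not. TLR1, TLR2, SAA1 and SAA2 passed only through groups in which they were higher, since no Prol library reached that level, before TMM scaling, for any of them. Per kilobase of exon, the order of levels in Sen(IR) was CASP4 (19.6 CPM per kb), CASP1 (14.4), MYD88 (11.2), TLR3 (2.97), SAA1 (0.963), TLR6 (0.587), SAA2 (0.392), TLR1 (0.231), TLR2 (0.0542) and TLR4 (0.0224). Libraries of the neighbours TLR6 and SAA2, SAA2 and TLR1, and TLR2 and TLR4 overlapped in that order, and those of the other neighbours did not. The same 3 genes, CASP4, CASP1 and MYD88, headed every group. In Sen(IR)+UK5099, MYD88 at 10.1 CPM per kb stood above CASP1 at 7.82 CPM per kb, without overlap of the libraries, whereas CASP1 stood above MYD88 in the other groups.

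In Sen(IR) against Prol, 4 of the 9 genes tested were called higher (TLR1, TLR3, SAA1 and SAA2) and 0 lower, where 24.8% of all genes tested were called higher and 22.4% lower. Of these 4, TLR1, SAA1 and SAA2 passed the filter only through irradiated groups, so they could hardly be called lower. The same holds for TLR2 in each comparison with Prol. In Sen(IR)+UK5099 against Sen(IR), 6 of 9 were called lower (TLR3, TLR6, SAA1, SAA2, CASP1 and CASP4) and 0 higher, where 12.1% of all genes were called lower and 8.76% higher. SAA1 and SAA2 reached the filter level in no UK5099 library, so they could hardly be called higher with UK5099 than in another senescent group. In Sen(IR)+CTPI2 against Sen(IR), 0 of 9 were called by edgeR and 0 by DESeq2, where 0.166% of all genes were called (0.0185% higher and 0.148% lower). Of the 9, 0 had an unadjusted p under 0.05, which 7.27% of all genes had. In the Sen(IR)+UK5099 against Sen(IR)+CTPI2 comparison, the same 6 genes were called lower with UK5099, where 11.7% of all genes were (8.2% higher). Against Prol, 1 gene was higher and 3 were lower in Sen(IR)+UK5099 (all genes, 26.9% and 26.2%), and 5 were higher and 0 lower in Sen(IR)+CTPI2 (all genes, 24.8% and 21.9%). Both inhibitor comparisons share the Sen(IR) libraries, and the comparisons with Prol share the Prol libraries.

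**Figure D2:**
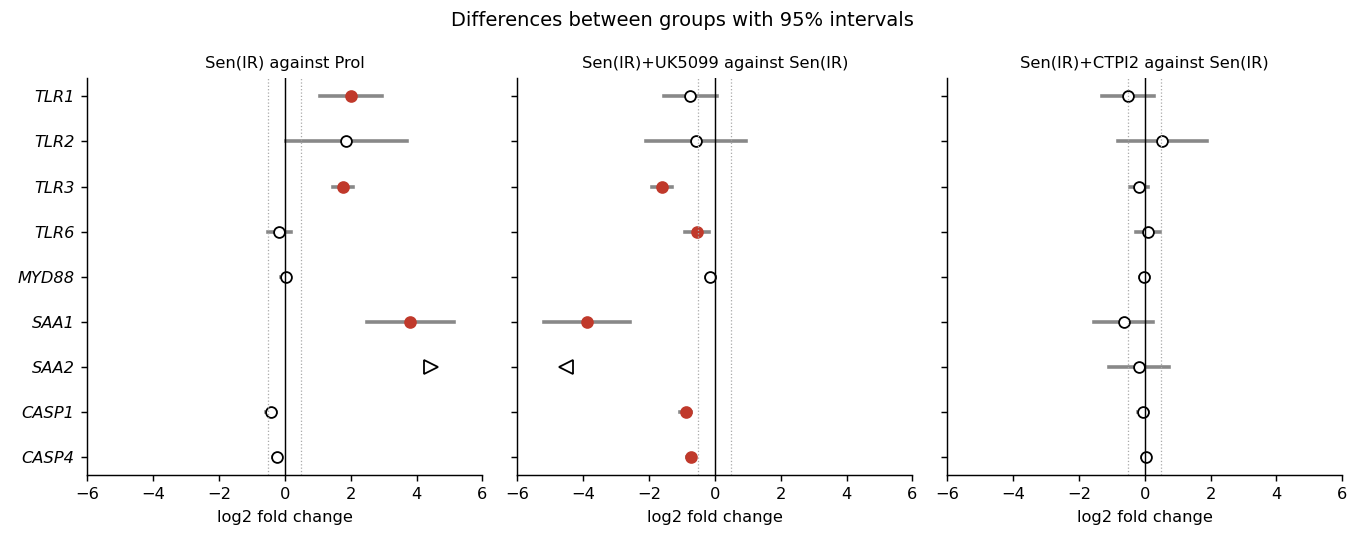
Log2 fold change (x axis) of the 9 genes tested (y axis) in Sen(IR) against Prol, Sen(IR)+UK5099 against Sen(IR) and Sen(IR)+CTPI2 against Sen(IR). Circles are edgeR estimates with 95% intervals as lines, filled red where called, dotted lines mark the limit of 0.5, and open triangles are the smallest difference that a group of SAA2 libraries with 0 counts allows. No circle in the CTPI2 panel is filled, while the UK5099 panel has 5 red circles, all on the lower side, with the SAA2 triangle.

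TLR3 (ENSG00000164342, chromosome 4, 186068911 to 186088073, plus strand, GRCh38) was the receptor with the clearest change in both directions. It stood at 5.20, 9.02 and 5.58 CPM in Prol and at 22.9, 21.0 and 22.9 CPM in Sen(IR). With UK5099 it was at 5.84, 8.34 and 7.71 CPM, and with CTPI2 at 19.1, 19.9 and 20.8 CPM. Every Sen(IR) and CTPI2 library lay above every Prol and UK5099 library, and the Prol and UK5099 libraries overlapped. TLR3 rose in Sen(IR) by 1.76 ± 0.146 (log2, SE; edgeR adjusted p = 3.35e-10) and fell by 1.61 on the log2 scale with UK5099 (SE 0.143, edgeR adjusted p = 4.42e-09). The UK5099 group differed from Prol by 0.16 (95% interval -0.17 to 0.49, edgeR adjusted p = 0.385). With CTPI2 the difference from Sen(IR) was -0.16 (95% interval -0.43 to 0.11, edgeR adjusted p = 0.878), an interval that does not reach the limit of 0.5 on either side. It was called higher with CTPI2 than in Prol (log2 fold change 1.60, edgeR adjusted p = 1.75e-09) and lower with UK5099 than with CTPI2, at a log2 fold change of -1.44 ± 0.143 (SE, edgeR adjusted p = 2.81e-08).

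The promoters of TLR3 and of MYD88 and CASP4 are printed here because these genes went different ways: TLR3 rose and fell, CASP4 fell with UK5099 and MYD88 was called in no comparison. They are the RefSeq sequences of GRCh38.p14 from 250 bases before to 50 bases after the RefSeq gene start, written 5′ to 3′ on the gene's strand. For these genes that start differs from the GENCODE v44 start in the positions given with each gene. Capitals mark matches, on either strand, to a STAT type motif (TTCNNNGAA) or an interferon response type motif (GAAA, any 2 bases, GAAA).
TLR3, chr4:186068906-186069205, plus strand: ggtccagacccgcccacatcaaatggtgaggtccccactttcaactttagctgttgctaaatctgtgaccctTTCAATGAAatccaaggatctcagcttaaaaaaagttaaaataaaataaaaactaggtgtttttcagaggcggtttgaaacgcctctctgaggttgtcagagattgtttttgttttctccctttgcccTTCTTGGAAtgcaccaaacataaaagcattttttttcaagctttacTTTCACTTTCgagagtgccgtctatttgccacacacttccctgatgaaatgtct
MYD88, chr3:38138411-38138710, plus strand: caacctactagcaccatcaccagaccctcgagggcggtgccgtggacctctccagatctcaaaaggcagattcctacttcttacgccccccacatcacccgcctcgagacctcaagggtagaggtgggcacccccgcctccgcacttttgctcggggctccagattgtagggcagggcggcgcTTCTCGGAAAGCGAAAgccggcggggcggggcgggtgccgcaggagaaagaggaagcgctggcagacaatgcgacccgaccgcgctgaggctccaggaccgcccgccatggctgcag
CASP4, chr11:104968525-104968824, minus strand: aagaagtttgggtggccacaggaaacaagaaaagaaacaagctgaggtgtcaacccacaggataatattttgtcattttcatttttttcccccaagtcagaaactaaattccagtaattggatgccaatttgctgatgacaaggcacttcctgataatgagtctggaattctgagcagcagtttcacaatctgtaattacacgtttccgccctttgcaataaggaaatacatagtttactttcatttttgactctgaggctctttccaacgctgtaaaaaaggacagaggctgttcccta
Entries were found for 6 of the 10 genes, TLR2, TLR3, TLR4, TLR6, MYD88 and CASP4. The TLR3 window holds STAT type matches at -178 and -50 and an interferon response type match at -4 (first base, counted from the gene start), and in MYD88 a STAT type match at -67 overlaps an interferon response type match at -61. These were the only members with either motif, which occur in 7.7% and 3.6% of the 35116 promoters. An NF-kB type motif (GGG, any 5 bases, CC) was found in TLR2, MYD88 and CASP4 and in 58.7% of all promoters, and a C/EBP type motif (TTNNGNAA) in TLR3, TLR6 and CASP4 and in 36.8% of all. An AP-1 type motif (TGANTCA) was in 0 of the 6 and 7.7% of all, and the TLR4 window held none of the 5 motifs. A match is a run of letters and not a measured site, and both a gene that moved and one that was not called carried the same types.

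**Figure D3:**
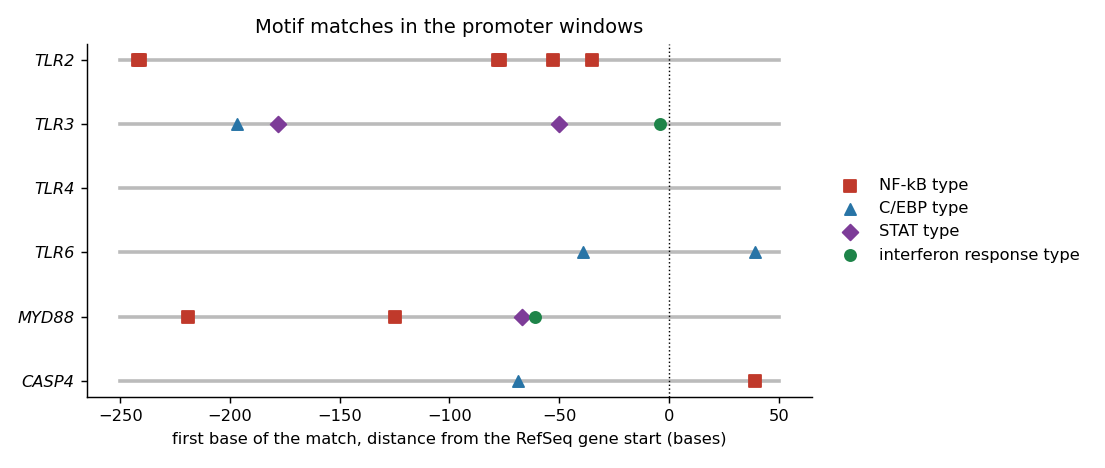
Position of the first base of each motif match (x axis, bases from the RefSeq gene start) in the promoter windows of 6 genes (y axis). Grey lines span the window, markers give the motif type as in the legend, and matches on both strands are drawn. TLR3 and MYD88 carry STAT type and interferon response type matches, and TLR4 carries none.

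TLR6 (ENSG00000174130, chromosome 4, 38822897 to 38856817, minus strand), the partner of TLR2 for diacylated lipoproteins, stood at 5.08, 3.99 and 4.50 CPM in Prol and 3.56, 5.12 and 3.38 CPM in Sen(IR). With UK5099 it was at 2.82, 2.41 and 3.02 CPM and with CTPI2 at 4.52, 4.33 and 4.11 CPM. All 3 UK5099 libraries lay below the other 9, which overlapped among themselves. The difference between Sen(IR) and Prol was -0.17 (SE 0.169, edgeR adjusted p = 0.382), and TLR6 fell by 0.55 on the log2 scale with UK5099 (SE 0.179, 95% interval -0.92 to -0.18, edgeR adjusted p = 0.0155). This call was lost without Sen(IR) replicate 2 (log2 fold change -0.34, edgeR adjusted p = 0.154), the highest TLR6 library of its group, and without replicate 2 of the UK5099 group (-0.46, edgeR adjusted p = 0.0681). Against Prol, TLR6 was called lower in the UK5099 group (log2 fold change -0.72, SE 0.173, edgeR adjusted p = 8.01e-04). The level was also called lower than in the CTPI2 group, at -0.65 ± 0.175 (log2, SE; edgeR adjusted p = 0.00430). TLR6 shares 0.83% of its exon bases with TLR1, whose first exons it overlaps on the same strand.

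TLR1 (ENSG00000174125, chromosome 4, 38790677 to 38856817, minus strand), the partner of TLR2 for triacylated lipoproteins, was counted 3, 10 and 6 times in Prol and 33, 22 and 13 times in Sen(IR). With UK5099 the counts were 18, 12 and 18, and with CTPI2 16, 15 and 21. In CPM, TLR1 went from 0.260 ± 0.154 in Prol to 1.05 ± 0.415 in Sen(IR), and the other groups were between, at 0.629 ± 0.161 with UK5099 and 0.743 ± 0.150 with CTPI2 (SD, n = 3). Every irradiated library exceeded every Prol library. TLR1 rose in Sen(IR) by 2.01 ± 0.449 (log2, SE; edgeR adjusted p = 4.31e-04). Neither inhibitor group was called against Sen(IR), with log2 fold changes of -0.75 (95% interval -1.55 to 0.05, edgeR adjusted p = 0.121) for UK5099 and -0.51 (95% interval -1.30 to 0.29, edgeR adjusted p = 0.863) for CTPI2. Both intervals still hold a fall larger than the limit of 0.5, so that at these counts a fall of that size was not excluded. Against Prol, TLR1 was called higher in the UK5099 group (log2 fold change 1.26, SE 0.474, edgeR adjusted p = 0.0210), a call lost in 4 of the 6 fits that left out a library (largest edgeR adjusted p = 0.0950, without Prol replicate 1; also without Prol replicate 3 and without UK5099 replicate 1 or 3). It was also higher with CTPI2 than in Prol (2.83-fold, SE of the log2 fold change 0.467, edgeR adjusted p = 0.00697).

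TLR2 and TLR4, the receptors best known from macrophages, were near the limit of what these libraries can count. TLR2 (ENSG00000137462, chromosome 4, 153684070 to 153706260, plus strand) had 3, 3 and 0 counts in Prol, 9, 0 and 11 in Sen(IR), 7, 3 and 6 with UK5099 and 6, 15 and 11 with CTPI2. Sen(IR) replicate 2 held no TLR2 count, whereas the other Sen(IR) libraries exceeded all of Prol. The log2 fold change of Sen(IR) against Prol was 1.87 (SE 0.882, 95% interval 0.04 to 3.70, edgeR adjusted p = 0.0656), which was not called. Without Sen(IR) replicate 2 it was 2.44 and called (edgeR adjusted p = 0.00687), while without Sen(IR) replicate 3 it was 1.27 (edgeR adjusted p = 0.289) and without Prol replicate 3 it was 1.25 (edgeR adjusted p = 0.220). The summed counts, 20 in Sen(IR) and 6 in Prol, gave a ratio of 3.84 after scaling for depth (95% exact interval 1.49 to 11.7, counting error only). TLR2 was called higher with CTPI2 than in Prol (log2 fold change 2.40, SE 0.815, edgeR adjusted p = 0.0125), but not without CTPI2 replicate 2 (edgeR adjusted p = 0.0551) or Prol replicate 3 (edgeR adjusted p = 0.0626). Against Sen(IR), the log2 fold change was -0.57 with UK5099 (95% interval -2.09 to 0.95) and 0.53 with CTPI2 (95% interval -0.82 to 1.89), intervals too wide to show a difference or its absence.

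TLR4 (ENSG00000136869, chromosome 9, 117704175 to 117724735, plus strand) had 0 counts in all 3 Prol libraries. It had 5, 10 and 4 counts in Sen(IR), 10, 8 and 8 with UK5099 and 7, 5 and 3 with CTPI2. All 9 irradiated libraries thus held TLR4 counts and no Prol library did. Against the floor of 3 counts over the Prol group, its level as counted was 7.29-fold higher in Sen(IR), 8.30-fold higher with UK5099 and 5.25-fold higher with CTPI2. The floor bounds the Prol group only, and the counting error of the irradiated groups is not included. TLR4 did not pass the filter. In a fit with no filter it was called in Sen(IR) against Prol (edgeR adjusted p = 6.33e-05), and with UK5099 against Sen(IR) the log2 fold change was 0.18 (SE 0.663, edgeR adjusted p = 0.960). The UK5099 and Sen(IR) libraries overlapped, and their ratio of summed counts was 1.14 (95% exact interval 0.606 to 2.18). At 0.298 ± 0.153 CPM in Sen(IR) (SD, n = 3), TLR4 was below the highest summed level of the white blood cell markers (1.02 CPM in that group), and the part of other cells in it was not tested. Of its exon bases, 5.11% are shared with another annotated gene.

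MYD88 (ENSG00000172936, chromosome 3, 38138552 to 38143024, plus strand), the adaptor below these receptors other than TLR3, hardly varied. Its level was 43.7, 47.8 and 45.9 CPM in Prol, 48.7, 47.0 and 44.5 CPM in Sen(IR), 46.2, 41.7 and 39.4 CPM under UK5099 and 44.5, 46.9 and 47.2 CPM under CTPI2. The 4 groups overlapped. In Sen(IR) against Prol the log2 fold change was 0.03 (95% interval -0.11 to 0.17, edgeR adjusted p = 0.709). With UK5099 it was -0.14 (95% interval -0.28 to -0.0027, edgeR adjusted p = 0.0906) and with CTPI2 -0.02 (95% interval -0.15 to 0.12, edgeR adjusted p = 0.985). None of these 3 intervals reached the limit of 0.5. The direction turned without Sen(IR) replicate 1 in 2 of these comparisons (log2 fold change -0.0015 against Prol and 0.01 with CTPI2), without Prol replicate 1 (-0.0028 against Prol) and without CTPI2 replicate 1 (0.0098 with CTPI2).

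SAA1 (ENSG00000173432, chromosome 11, 18266260 to 18269977, plus strand) had 4, 1 and 0 counts in Prol and 30, 19 and 17 in Sen(IR). It had 0, 3 and 2 counts with UK5099 and 19, 12 and 15 with CTPI2. The Sen(IR) and CTPI2 libraries were all above those of the other groups. SAA1 rose in Sen(IR) by 3.81 ± 0.631 (log2, SE; edgeR adjusted p = 1.36e-05), and fell by 3.88 on the log2 scale with UK5099 (SE 0.629, edgeR adjusted p = 2.65e-05). As fitted values depend on a prior count at these levels, the ratios of summed counts were also taken, at 15.2 (95% exact interval 6.19 to 48.3) for Sen(IR) over Prol and 15.9 (95% exact interval 6.47 to 50.5) for Sen(IR) over Sen(IR)+UK5099. The rise was 5.35 without Prol replicate 1 and 3.20 without Prol replicate 3 (log2), and the difference with UK5099 was -4.51 without replicate 2 of that group, all of them called. The UK5099 and Prol groups overlapped (log2 fold change -0.07, SE 1.02, edgeR adjusted p = 0.956). With CTPI2, SAA1 was at 0.659 ± 0.169 CPM beside 1.02 ± 0.272 CPM in Sen(IR) (SD, n = 3), a log2 fold change of -0.64 that was not called (95% interval -1.54 to 0.26, edgeR adjusted p = 0.839).

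SAA2 (ENSG00000134339, chromosome 11, 18239223 to 18248668, minus strand) lies 17591 bases from SAA1. It had 30, 12 and 15 counts in Sen(IR) and 25, 19 and 11 with CTPI2, and 0 counts in each library of Prol and of Sen(IR)+UK5099. Those 2 groups stood apart from the other 2 in every library. SAA2 was called higher in Sen(IR) than in Prol (edgeR adjusted p = 4.89e-06) and lower with UK5099 than in Sen(IR) (edgeR adjusted p = 1.11e-05). Against a floor of 3 counts over the group, its level in Sen(IR) as counted was 21.9-fold higher than in Prol and 22.8-fold higher than with UK5099. The counting error of Sen(IR) is not included in these ratios. With CTPI2 the log2 fold change was -0.17 (95% interval -1.08 to 0.74, edgeR adjusted p = 0.972).

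The SAA1 and SAA2 transcripts are near copies, at 85.8% identity over the aligned canonical transcripts with 24 mismatched bases. Of the 150-base windows of the SAA1 transcript, 10.03% also occur in SAA2, and 8.67% of those of SAA2 occur in SAA1, so that single reads in those stretches could not be given to 1 gene. The read-through gene SAA2-SAA4 of GENCODE v44 holds 28.1% of the SAA2 windows. As only unique reads were counted, both genes may miss such reads, and the split between the pair is therefore uncertain. Summed over both, the counts were 4, 1 and 0 in Prol, 60, 31 and 32 in Sen(IR), 0, 3 and 2 with UK5099 and 44, 31 and 26 with CTPI2. The sum gave the same calls, with log2 fold changes of 4.71 in Sen(IR) against Prol (edgeR adjusted p = 2.65e-07), -4.77 with UK5099 (edgeR adjusted p = 6.43e-07) and -0.40 with CTPI2 (edgeR adjusted p = 0.905). Between the inhibitors, SAA1 was lower with UK5099 than with CTPI2, at a log2 fold change of -3.24 ± 0.666 (SE, edgeR adjusted p = 4.05e-04), with a ratio of summed counts of 10.1 (95% exact interval 4.03 to 32.5). SAA2 as counted was 20.1-fold higher with CTPI2, against the floor of 3 counts over the UK5099 group. In the CTPI2 group both were called higher than in Prol, SAA1 by 3.17 (log2, edgeR adjusted p = 2.34e-04) and SAA2, as counted against that floor over the Prol group, by 19.2-fold. The SAA1 value was 4.71 without Prol replicate 1 and 2.56 without Prol replicate 3, called in both. These are low levels, for at most 30 counts of either gene were found in a library of at least 20597736 counts.

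CASP1 (ENSG00000137752, chromosome 11, 105025397 to 105035250, minus strand) and CASP4 (ENSG00000196954, chromosome 11, 104942866 to 104969366, minus strand) lie 56030 bases apart in the caspase cluster and had the highest levels of the 10 genes per kilobase in Prol, Sen(IR) and Sen(IR)+CTPI2. CASP1 stood at 67.1, 85.7 and 76.3 CPM in Prol, 58.4, 55.2 and 58.0 CPM in Sen(IR), 32.5, 33.0 and 27.5 CPM under UK5099 and 55.9, 54.9 and 54.2 CPM under CTPI2. The Prol libraries were above all others and the UK5099 libraries below all others. CASP1 fell by 0.88 on the log2 scale with UK5099 (SE 0.0801, edgeR adjusted p = 6.37e-09). In Sen(IR) against Prol the log2 fold change was -0.42 (95% interval -0.58 to -0.26, edgeR adjusted p = 4.85e-05), below the limit of 0.5 in size. Without Prol replicate 1, the lowest of its group, it was -0.50 and just past the limit (edgeR adjusted p = 3.08e-06). With CTPI2 the difference from Sen(IR) was -0.06 (95% interval -0.22 to 0.10, edgeR adjusted p = 0.944).

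CASP4 stood at 146, 159 and 159 CPM in Prol and 128, 130 and 134 CPM in Sen(IR). It was at 80.3, 78.8 and 77.4 CPM under UK5099 and at 137, 136 and 126 CPM under CTPI2. As with CASP1, every UK5099 library was below every other and every Prol library above. CASP4 fell by 0.73 on the log2 scale with UK5099 (SE 0.0539, edgeR adjusted p = 2.11e-10), a change with a 95% interval of -0.84 to -0.62. In Sen(IR) against Prol it was -0.24 (95% interval -0.35 to -0.14, edgeR adjusted p = 2.96e-04), under the limit, and with CTPI2 against Sen(IR) 0.03 (95% interval -0.08 to 0.14, edgeR adjusted p = 0.962). Both caspases were also lower with UK5099 than in Prol, CASP1 by -1.30 (SE 0.0790, edgeR adjusted p = 1.20e-12) and CASP4 by -0.97 (SE 0.0537, edgeR adjusted p = 2.12e-13) on the log2 scale. So the caspases, already below every Prol library in Sen(IR), fell further with UK5099, and TLR6 was called lower than in Prol too. With UK5099, TLR3, SAA1 and SAA2 overlapped the proliferating level. As both carrier inhibitors were given to irradiated cells, their groups were also set against each other, at different concentrations of the compounds. CASP1 was lower with UK5099 than with CTPI2, at a log2 fold change of -0.83 ± 0.0799 (SE, edgeR adjusted p = 1.98e-08), as was CASP4 (log2 fold change -0.76, SE 0.0538, edgeR adjusted p = 1.28e-10). The CTPI2 group differed from Prol by -0.47 for CASP1 (edgeR adjusted p = 9.57e-06) and -0.22 for CASP4 (edgeR adjusted p = 9.81e-04), both under the limit, and those comparisons share the Prol libraries. In the same UK5099 libraries COL1A1, the main fibrillar collagen of fibroblasts, was at 1601 ± 109 CPM beside 4714 ± 93.6 CPM in Sen(IR), while the proteoglycan DCN was at 1362 ± 103 CPM beside 1363 ± 52.1 CPM (SD, n = 3). The other collagen markers, PDGFRA and THY1 were also called lower than in Sen(IR), while LUM and PDGFRB were not called. The part of this marker shift in the caspase result was not tested.

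The genes whose log2 CPM followed each member most closely over the 12 libraries were sought among all genes tested. Pearson's r was highest for CADM1 (0.992) and GNAI1 (0.990) with TLR3, CFB (0.976), a complement factor, and PHTF1 (0.968) with SAA1, and NDRG1 (0.985) and the chemokine CCL7 (0.985) with SAA2. For CASP1 it was AREG (0.995), a growth factor of the EGF family, and PYCR1 (0.992), an enzyme of proline synthesis, and for CASP4 NRDC (0.996) and BGN (0.993), the proteoglycan biglycan. The genes nearest to TLR1 were MEX3C (0.969) and TSPAN2 (0.945), to TLR6 ROBO4 (0.945) and RABEP2 (0.914), to MYD88 ZNF460 (0.891) and OPA3 (0.880), and to TLR2 AL049775.1 (0.846) and TTYH1 (0.827). The libraries fall into 4 groups, so that these values describe mainly the order of the group means, and the highest of 16251 correlations is high by choice.

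Genes that work with the receptors were read from a list of 17 co-receptors, adaptors and other Toll-like receptors, 10 of which were tested. In Sen(IR) against Prol, 6 were higher and 1 lower (all genes, 24.8% and 22.4%), with a median log2 fold change of 0.76 beside 0.01 over all genes. Among them, CD14 was at most 0.256 CPM in Prol, under the filter level, so it could hardly be called lower. TICAM2 was at most 0.267 CPM in Sen(IR), also under that level, so it could hardly be called higher. CD14, the lipopolysaccharide co-receptor of TLR4, rose from 0.192 ± 0.0564 to 3.32 ± 0.389 CPM (log2 fold change 4.09, edgeR adjusted p = 5.06e-11), and CD36, a scavenger receptor that assists TLR2 and TLR6, from 0.782 ± 0.217 to 9.95 ± 0.691 CPM (log2 fold change 3.67, edgeR adjusted p = 1.72e-13). LY96, the MD-2 subunit that TLR4 needs to bind lipopolysaccharide, rose by 0.89 (edgeR adjusted p = 9.57e-08) and UNC93B1, the chaperone that brings TLR3 to endosomes, by 0.95 (edgeR adjusted p = 2.97e-07). TICAM2, the bridging adaptor of TLR4, fell by 1.34 on the log2 scale, from 44 counts in the 3 Prol libraries to 15 in Sen(IR) (edgeR adjusted p = 0.0175). Of the TICAM2 exon bases, 89.41% are shared with other annotated genes, mainly the read-through gene TMED7-TICAM2, so its counts may miss many of its reads.

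With UK5099, 3 of these 10 genes were lower and 0 higher than in Sen(IR) (all genes, 12.1% and 8.76%), with a median of -0.41 beside 0.01 over all genes. CD36 was at 0.880 ± 0.279 CPM (log2 fold change -3.50, edgeR adjusted p = 1.13e-12), and LBP, the lipopolysaccharide-binding protein, went from 1.97 ± 0.399 to 0.219 ± 0.155 CPM (log2 fold change -3.12, edgeR adjusted p = 1.11e-06). LBP was at most 0.388 CPM under UK5099, below the filter level, so it could hardly be called higher there. TICAM1, the adaptor of TLR3, fell by 0.51 on the log2 scale (edgeR adjusted p = 0.00128). CD14 was at 2.57 ± 0.436 CPM under UK5099 and was not called (log2 fold change -0.37, edgeR adjusted p = 0.121), and UNC93B1 differed by -0.07 (edgeR adjusted p = 0.630). With CTPI2, 0 of the 10 were called by edgeR or DESeq2, and 1 had an unadjusted p under 0.05 (all genes by edgeR, 0.166% and 7.27%). The receptors TLR5, TLR7, TLR8, TLR9 and TLR10 were not tested, with at most 14 counts per group of 3 libraries, and LY86 had 0 counts throughout. TLR9 shares 99.67% of its exon bases with another gene on its strand in GENCODE v44, so that its low counts need not show low expression.

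Of 23 signalling kinases, ubiquitin ligases and brakes of the pathway, all tested, 7 were higher (30.4%) and 3 lower (13.0%) in Sen(IR) than in Prol (median 0.06), beside 24.8% and 22.4% of all genes. TNFAIP3 (A20), a deubiquitinase that restrains NF-kB signalling, rose from 6.67 ± 0.511 to 40.4 ± 2.07 CPM (log2 fold change 2.60, edgeR adjusted p = 1.08e-16), and its partner TNIP1 from 66.9 ± 4.23 to 153 ± 2.23 CPM (log2 fold change 1.20, edgeR adjusted p = 1.65e-14). The kinases IRAK2 (1.97) and IKBKE (1.00) and the decoy kinase IRAK3 (0.98) were also called higher on the log2 scale, whereas IRAK1, the kinase recruited by MYD88, fell by 0.93 (edgeR adjusted p = 6.01e-12). With UK5099, 5 were lower and 1 higher than in Sen(IR) (median 0.07), or 21.7% and 4.35% beside 12.1% and 8.76% of all genes. The 5 were TNFAIP3, which fell by 4.28 on the log2 scale to 2.08 ± 0.117 CPM, IKBKE (-1.61), IRAK2 (-1.44), TNIP1 (-1.23) and IRAK3 (-1.20), and the ligase PELI3 was higher (0.58, edgeR adjusted p = 0.00132). With CTPI2 0 of 23 were called by edgeR or DESeq2 and 4 had an unadjusted p under 0.05 (all genes by edgeR, 0.166% and 7.27%). TNFAIP3 was at 30.7 ± 2.88 CPM under CTPI2, a log2 fold change of -0.40 that passed the adjusted threshold (edgeR adjusted p = 0.0176) and not the limit of 0.5.

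**Figure D4:**
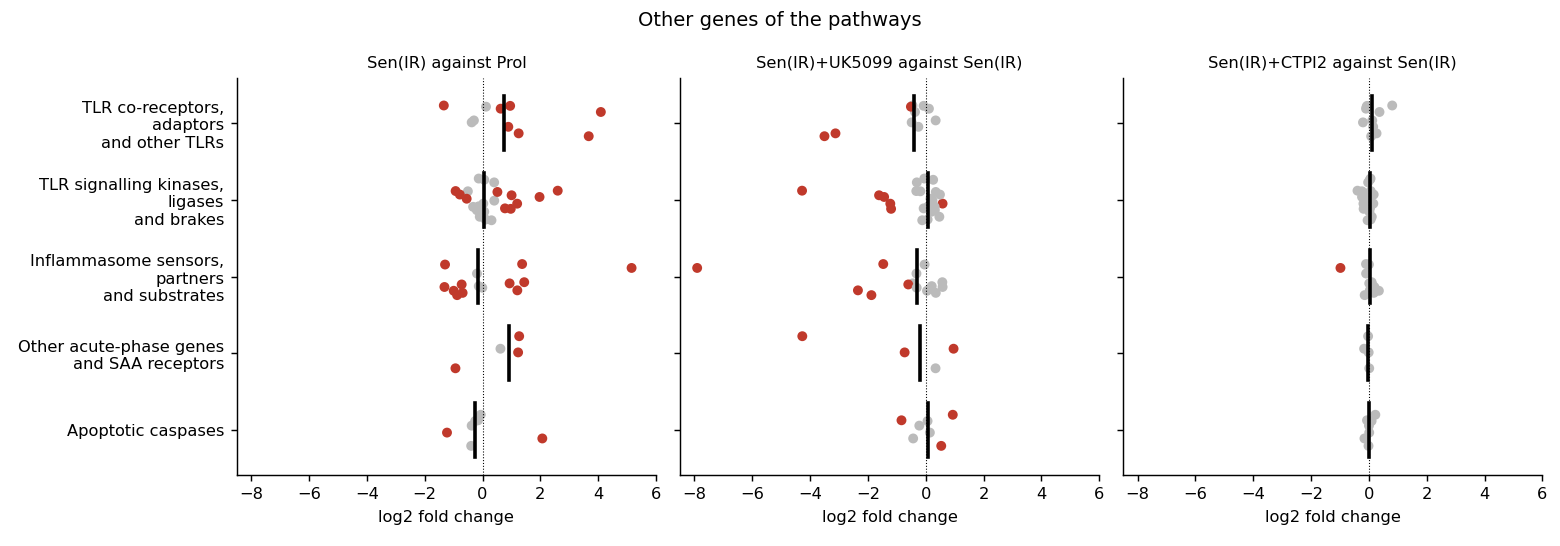
Log2 fold change (x axis) of the tested genes of 5 lists around the 10 genes (y axis) in 3 comparisons. Points are genes, red where called, and black bars are list medians. In the CTPI2 panel 1 point, IL1B, is red; the far left point of the UK5099 panel is also IL1B, whose libraries held 1 or 2 counts there, so that its fitted value depends on the prior count.

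Among 20 inflammasome sensors, partners and substrates, 14 were tested, and in Sen(IR) against Prol 5 were higher (35.7%) and 6 lower (42.9%) (median -0.16), beside 24.8% and 22.4% of all genes. NAIP, among the 6 lower, was at most 0.400 CPM in Sen(IR), under the filter level, so it could hardly be called higher. IL1B, the main substrate of CASP1, rose from 0.377 ± 0.141 to 13.7 ± 0.971 CPM (log2 fold change 5.15, edgeR adjusted p = 2.47e-15), and IL18, its other cytokine substrate, from 0.893 ± 0.0640 to 2.07 ± 0.216 CPM (log2 fold change 1.20, edgeR adjusted p = 2.41e-04). GBP2 (1.37) and the sensor NLRC4 (1.44, edgeR adjusted p = 0.0015) were also called higher on the log2 scale. The substrates thus rose where the protease CASP1 itself was not called. GSDMD, the pore protein cut by both caspases, fell by 1.00 on the log2 scale (edgeR adjusted p = 1.42e-07), and so did CARD16, a neighbour of CASP1 that encodes an inhibitor of it, by 0.72 (edgeR adjusted p = 5.05e-08). With UK5099, 5 of 14 were lower and 0 higher than in Sen(IR) (median -0.32), beside 12.1% and 8.76% of all genes. IL1B went from 304, 271 and 301 counts to 1, 2 and 1 counts (edgeR adjusted p = 1.64e-15), IL18 fell by 2.34 (edgeR adjusted p = 6.64e-07), and CARD16 by 0.60 (edgeR adjusted p = 4.85e-06). The guanylate-binding proteins GBP1 (-1.88) and GBP2 (-1.47), which help to expose lipopolysaccharide to CASP4, were also called lower, while GSDMD differed by 0.04 (edgeR adjusted p = 0.804). With CTPI2, 1 of 14 was called (all genes, 0.166%): IL1B, at 143, 145 and 197 counts, fell by 0.98 on the log2 scale (SE 0.140, edgeR adjusted p = 4.25e-04). NLRP3 had 3 to 10 counts per group and AIM2 at most 3, so these sensors were not tested, and nor was CASP5 (5 to 16 counts per group). In GENCODE v44, exon bases shared with another gene made up 66.04% of NLRP3 (same strand) and 56.18% of NLRC4 (opposite strand). Whether these neighbours were in the annotation used for the counting was not checked. The low counts of NLRP3 therefore need not show low expression, and the NLRC4 count may miss or take in reads of its neighbour.

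Of 17 other acute-phase genes and receptors described for serum amyloid A, 4 were tested. PTX3, a pentraxin made outside the liver, rose from 164 ± 11.5 to 396 ± 3.73 CPM in Sen(IR) (log2 fold change 1.27, edgeR adjusted p = 4.97e-14) and fell by 4.27 on the log2 scale with UK5099, to 20.5 ± 2.66 CPM (edgeR adjusted p = 1.78e-21). SCARB1, the high-density lipoprotein receptor that also binds serum amyloid A, rose by 1.23 and fell by 0.73 with UK5099 (edgeR adjusted p = 7.66e-10), and AGER, the receptor for advanced glycation end products, fell by 0.94 in Sen(IR) (edgeR adjusted p = 0.00390). HPX, hemopexin, rose by 0.96 with UK5099 (edgeR adjusted p = 0.0330). The medians were 0.92 and -0.20, and with CTPI2 0 of 4 were called by edgeR or DESeq2, with 0 at an unadjusted p under 0.05 (all genes by edgeR, 0.166% and 7.27%). SAA4, CRP and FPR2 had at most 3 counts per group and were not tested, and SAA4 shares 75.56% of its exon bases with SAA2-SAA4.

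The 7 apoptotic caspases gave a measure of how the inflammatory pair compared with the rest of the family. In Sen(IR) against Prol, CASP10, a death receptor caspase, was higher (log2 fold change 2.07, edgeR adjusted p = 7.49e-05) and CASP2 lower (-1.23, edgeR adjusted p = 6.13e-13), with a median of -0.25 over the 7. CASP10 had at most 10 counts in a Prol library, under the filter level before TMM scaling, so it could hardly be called lower. With UK5099, the initiator CASP9 rose from 5.69 ± 0.0498 to 10.9 ± 0.513 CPM (log2 fold change 0.93, edgeR adjusted p = 2.24e-07) and CASP6 by 0.54 (edgeR adjusted p = 1.16e-05), whereas CASP1 and CASP4 fell, and the median over the 7 was 0.06. With CTPI2 0 of 7 were called by edgeR or DESeq2, with 0 at an unadjusted p under 0.05 (all genes by edgeR, 0.166% and 7.27%).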

How the data were processed

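RNA-seq counts of 12 MRC5 libraries were used, grouped by the labels into Prol and Sen(IR) and, with inhibitor, Sen(IR)+CTPI2 and Sen(IR)+UK5099, with 3 libraries each. Per the labels, the deposited counts were made by the authors from paired reads of 150 bases trimmed with Trimmomatic 0.36, aligned to GRCh38 with STAR 2.5.2b and counted over exons per gene from unique reads with featureCounts (Subread 1.5.2). Whether the library kept strand is not given in the sources used here, so reads of overlapping genes on opposite strands may not be told apart. As only unique reads were counted, reads that match near copies such as SAA1 and SAA2 equally well are lost.

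From the counts, R 4.3.3 with edgeR 4.0.16 (TMM scaling, genes kept by filterByExpr, quasi-likelihood test, 1 fit of all 12 libraries, 6 contrasts) gave log2 fold changes with standard errors and Benjamini-Hochberg adjusted p over 16251 genes. A total of 20597736 to 28245693 counts per library and a common dispersion of 0.00374 (coefficient of variation 6.12%) set the precision. Exact intervals cover counting error only, and the floor of 3 counts covers that of the group with 0 counts alone. The test was checked on simulated counts. Alternatives were DESeq2 1.42.0, other scalings, no filter, only the compared groups, a replicate block, an unadjusted limit, a fold limit of 1, SAA1 and SAA2 summed, and leaving out each library. Replicate numbers did not pair the libraries (18 same-number correlations, -0.0511 to 0.0423). Positions and shared bases are from GENCODE v44 on GRCh38, and promoters from RefSeq.

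The members and lists were chosen with earlier results of these data known, so the calls are descriptions of a chosen set. Genes of a list were named when called with either inhibitor or among the 3 largest called changes in Sen(IR) against Prol. LY96, UNC93B1, IRAK1, GSDMD and NAIP were outside this rule and were named after their values were seen, as were genes given as not called or not tested. A gene of the apoptotic caspase list is not reported here by name.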

Additional observations from a re-analysis of the deposited data

How the results depend on the processing

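Over the fits that left out no library, 420 of 434 gene-level values kept their direction and side of the threshold, and 159 of 168 counts stayed within 1.5 times. The 9 counts that moved did so under a fold limit of 1: from 6 to 3 members with UK5099 against Sen(IR) and against CTPI2, from 4 to 2 with UK5099 against Prol, in Sen(IR) against Prol from 7 to 4 co-receptors, 10 to 4 signalling genes and 11 to 6 inflammasome genes, with UK5099 from 3 to 1 acute-phase genes and 3 to 0 apoptotic caspases, and with CTPI2 from 1 to 0 inflammasome genes. These follow from the stricter limit. Upper-quartile scaling shifted the median of all genes by 0.12, 0.14 and 0.11 (log2) in Sen(IR), UK5099 and CTPI2 against Prol and turned 3 small differences, MYD88 (0.0284) and SAA1 (0.0622) in UK5099 against Prol and TLR6 (0.0465) in CTPI2 against Prol; it also called TLR2 in Sen(IR) against Prol (edgeR adjusted p = 0.0491), as did no filter (edgeR adjusted p = 0.0471).

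Leaving out 1 library kept 293 of 318 gene-level values and all 126 counts within these bounds. Directions turned only for differences that were not called, whose log2 fold changes ranged, in Sen(IR) against Prol, from -0.0028 to 0.0624 (MYD88); with UK5099 against Sen(IR), from -1.14 to 0.0231 (TLR2); with CTPI2 against Sen(IR), from -0.0392 to 1.13 (TLR2), -0.0022 to 0.31 (TLR6), -0.0496 to 0.0143 (MYD88) and -0.48 to 0.27 (SAA2); with UK5099 against Prol, from -0.70 to 1.47 (SAA1); and with CTPI2 against Prol, from -0.14 to 0.0225 (TLR6) and -0.0192 to 0.0437 (MYD88). In CTPI2 against Prol, CASP1 passed the fold limit without Prol replicate 1 (-0.56, edgeR adjusted p = 6.59e-07). The cause was not tested. Fits with the replicate number as a block gave the same member counts (4, 6, 0, 6, 4 and 5 called) and 3360 genes called with UK5099 against 3386 without it. TLR1, TLR2, TLR4, SAA1 and SAA2 rest on at most 33 counts per library, which limits the differences that can be seen.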

Other observations

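The inflammasome genes called lower in Sen(IR) than in Prol were GBP1, NAIP, SERPINB9, GSDMD, CARD16 and CARD8. SERPINB9, an inhibitor of granzyme B that also binds CASP1, stood at 26.7 ± 1.48 CPM in Prol and, after irradiation, at 10.8 ± 0.0875 CPM without inhibitor, 10.6 ± 0.975 CPM under UK5099 and 10.8 ± 0.497 CPM under CTPI2 (SD, n = 3), so its low level in senescent cells was nearly the same with and without either inhibitor. NINJ1, which ruptures the plasma membrane in lytic cell death, rose from 17.6 ± 2.61 to 33.8 ± 0.264 CPM in Sen(IR) (log2 fold change 0.94, edgeR adjusted p = 2.99e-09) and was at 24.8 ± 1.44 CPM under UK5099, a log2 fold change of -0.45 that passed the adjusted threshold (edgeR adjusted p = 1.72e-04) and not the limit of 0.5. These genes were picked after their values were seen.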
